A study of Mus musculus with 12 samples.

Results

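The transcripts described here are those of 10 genes that govern entry into the cell cycle: the CDK inhibitor genes Cdkn1a, Cdkn1b, Cdkn1c, Cdkn2a, Cdkn2b and Cdkn2c, the p53 gene Trp53 with its inhibitor Mdm2, and the D cyclin genes Ccnd1 and Ccnd2. They were chosen by name, with earlier results of these data known, and are 10 of the 24098 genes of an mRNA-Seq table. The table covers 12 libraries of mouse cells, each condition being represented by 1 library. Mouse embryonic fibroblasts (MEFs) from mid-gestation embryos that carry a GFP reporter after the coding sequence of Oct4 (Pou5f1), within a few passages of isolation, were infected with pMXs retroviruses that carry the 4 reprogramming factors (Oct4, Sox2, Klf4 and c-Myc, or OSKM) and kept in a medium, called FF, that holds LIF, ascorbic acid, bFGF and the GSK3 inhibitor CHIR99021. D0 was the uninfected MEF culture, D3 was unsorted cells on day 3 after infection, and D6T-, D6T+, D9T- and D9T+ were cells of days 6 and 9 sorted by the fibroblast surface protein Thy-1. D12S+, D12S-, D16S+ and D16S- were cells of days 12 and 16 sorted by SSEA-1, a carbohydrate on the surface of mouse pluripotent cells. The Thy-1- and SSEA-1+ fractions are the successful route of the study and the Thy-1+ and SSEA-1- fractions the unsuccessful route. The end points were induced pluripotent stem cells (iPSCs) and the ESD3 line of mouse embryonic stem cells (mESCs), both grown in FF medium according to the labels. The iPSCs are labelled fully reprogrammed MEFs, and the mESCs were uninfected.

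D cyclins bind CDK4 and CDK6, and the complexes phosphorylate the retinoblastoma protein, which then releases E2F factors to start DNA replication. Inhibitors of the INK4 family (p16Ink4a from Cdkn2a, and the products of Cdkn2b and Cdkn2c) bind CDK4 and CDK6 directly. Those of the CIP/KIP family (Cdkn1a, Cdkn1b and Cdkn1c) bind whole cyclin and CDK complexes. Cdkn2a also codes for p19Arf, which is not of the INK4 family. The p53 protein induces Cdkn1a and its own inhibitor Mdm2, an E3 ubiquitin ligase, and it is mostly regulated as a protein. In MEFs the Cdkn2a locus and p53 limit growth in culture, and both are known barriers to the conversion of fibroblasts to iPSCs.

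Cdkn2a and Cdkn1a have more than 1 annotated start, as do Cdkn2c, Trp53, Mdm2 and Ccnd1. A gene-level value joins the transcripts of all its starts, so stretches before some starts of Cdkn2a and Cdkn1a are shown. Cdkn2a lies on the minus strand of chromosome 4 (mm9, 88920377 to 88940557, 3 annotated transcripts), 11.6 kb from Cdkn2b (88952198 to 88956941, minus strand). Its transcript for p16Ink4a starts at 88928096 and those for p19Arf at 88940523 and 88940557, and both kinds share the second and the last exon. The value of Cdkn2a is therefore a sum over p16Ink4a and p19Arf transcripts, which were not separated here. Cdkn1a lies on the plus strand of chromosome 17 (29227924 to 29237667), with annotated starts at 29227924, 29230717 and 29235152, and its value likewise does not separate them. The 250 bases before each start shown are RefSeq sequences of the GRCm38.p6 build, each of which matched the mm9 genome exactly once, and they are given 5′ to 3′ on the strand of the gene. Capitals mark the word CATGNNNNNNCATG, the core of a p53 binding element, before the first start of Cdkn1a, and an E2F word (TTTCCCGC, TTTCGCGC, TTTGCCGC or TTTGGCGC) in Cdkn2a, both strands having been searched.
Cdkn1a, first start, chr17:29227674-29227923 (plus strand): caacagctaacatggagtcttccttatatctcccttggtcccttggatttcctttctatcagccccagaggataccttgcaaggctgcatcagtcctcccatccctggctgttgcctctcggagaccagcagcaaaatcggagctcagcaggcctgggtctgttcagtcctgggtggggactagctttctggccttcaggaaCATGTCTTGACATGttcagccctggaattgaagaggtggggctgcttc
Cdkn2a, p19Arf start, chr4:88940524-88940773 (minus strand): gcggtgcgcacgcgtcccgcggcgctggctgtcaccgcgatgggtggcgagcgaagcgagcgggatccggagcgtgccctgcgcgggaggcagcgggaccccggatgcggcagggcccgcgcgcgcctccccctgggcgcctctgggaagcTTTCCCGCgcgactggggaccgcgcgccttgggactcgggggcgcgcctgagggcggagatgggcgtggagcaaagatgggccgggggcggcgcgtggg
Cdkn2a, p16Ink4a start, chr4:88928097-88928346 (minus strand): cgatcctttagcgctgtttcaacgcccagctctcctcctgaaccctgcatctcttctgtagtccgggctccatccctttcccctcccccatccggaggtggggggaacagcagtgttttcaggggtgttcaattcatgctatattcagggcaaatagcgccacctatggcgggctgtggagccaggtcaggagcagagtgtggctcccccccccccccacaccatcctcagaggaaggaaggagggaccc
The p53 word lies at bases -48 to -35 of Cdkn1a (29227876 to 29227889), counted from the first start, and 0.49% of 32851 RefSeq windows of this length hold it. The RefSeq window before the second start (29230464 to 29230713, not printed) does not hold it. The E2F word lies at bases -99 to -92 of the p19Arf start, and 1.86% of all windows hold such a word. RefSeq windows were found for 7 of the 10 genes (10 windows), but not for every annotated start of these genes. The letters of a word show no bound factor.

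The remaining genes lie on several chromosomes of mm9. Cdkn1b (134870419 to 134875531, plus strand) and Ccnd2 (127075797 to 127101066, minus strand) are on chromosome 6, and Cdkn1c (150644255 to 150646955) and Ccnd1 (152115836 to 152125774) on the minus strand of chromosome 7. Cdkn2c is at 109333481 to 109339794 on the minus strand of chromosome 4, Trp53 at 69393861 to 69405375 on the plus strand of chromosome 11 and Mdm2 at 117125944 to 117147814 on the minus strand of chromosome 10. The deposited locus of Ccnd2 (127075727 to 127162437) is shared with 9330179D12Rik, which was at most 0.158 FPKM in any library. Trp53 has a processed pseudogene, and reads that matched more than 1 locus had been removed, so its level may be understated.

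Levels are FPKM, which corrects fragment numbers for transcript length and depth and can be compared between genes. Differences are log2(FPKM + 1) of the first-named library minus the other, a scale that understates the change of low genes, and a gene was counted as higher or lower at a difference of at least 2-fold. All 10 genes were among the 14178 genes with at least 1 FPKM in at least 1 library. Since each condition had 1 library, no difference has a replicate check and no test was made. Each FPKM has an interval from cuffdiff, which is a model value and was wide: for Trp53 in D0 it ran from 11.6 to 329 FPKM around 170 FPKM. The intervals of every gene overlapped in all 66 pairs of libraries. Among all 14178 genes, the share with intervals apart was 0.134% for D3 against D0, 0.0141% for D16S+ against D16S-, 0.987% for iPSCs against D0, and 0% for D6T- against D6T+, D9T- against D9T+, D12S+ against D12S- and iPSCs against mESCs. The text therefore orders the levels of single libraries, and no neighbours in such an order differ beyond these intervals.

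The libraries went with their labels. The Thy-1 sort left 3.24 FPKM of Thy1 in D6T- against 477 in D6T+, and the pluripotency gene Nanog reached 192 FPKM in D16S+ against 8.99 in D16S-. Sums over 8 fibroblast markers ranged from 32.9 FPKM in D16S+ to 7303 FPKM in D0, and those of pluripotency genes from 2.09 FPKM in D3 to 4807 FPKM in D16S+. D0 also held all 3 muscle markers (83.9 FPKM in sum), and 4 of 5 leukocyte markers reached 1 FPKM in D0 (29.9 FPKM in sum), although Ptprc, the pan-leukocyte gene among them, was at most 0.425 FPKM in any library. Sequencing depth, relative to D0, was lowest in D9T+ (0.967) and highest in D6T- (1.56). In bulk samples, fewer cells of a type and less RNA per cell cannot be told apart.

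**Figure D1:**
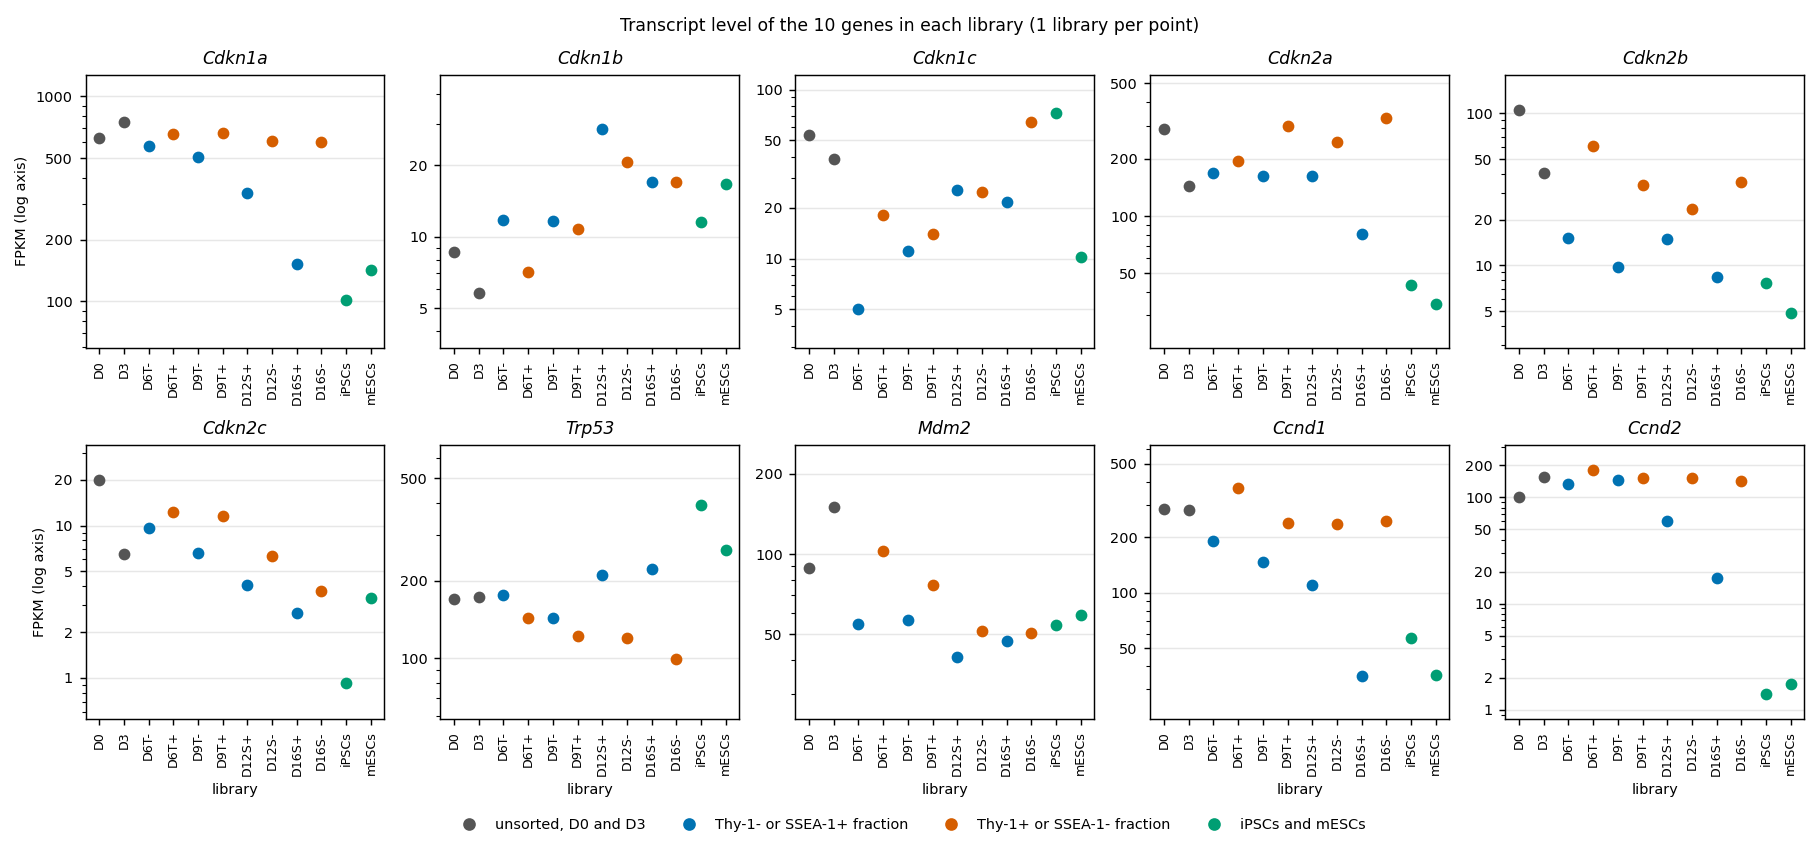
FPKM of the 10 genes (1 panel per gene, log axis) in the 12 libraries, 1 point per library, coloured by the kind of library. Cdkn1a, Ccnd1 and Ccnd2 stay within a narrow range in the Thy-1+ and SSEA-1- fractions and are lower in D16S+, iPSCs and mESCs, while Trp53 is highest in iPSCs.

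Cdkn1a, which codes for p21, was the most abundant CDK inhibitor transcript of the 6 in every library, and its difference between the routes was widest on day 16. It was at 626 FPKM in D0 and 751 in D3. In the Thy-1- and SSEA-1+ fractions it was at 571 FPKM in D6T-, 507 in D9T-, 338 in D12S+ and 152 in D16S+. In the Thy-1+ and SSEA-1- fractions it was at 658 FPKM in D6T+, 666 in D9T+, 603 in D12S- and 601 in D16S-. Over D0, D3 and the unsuccessful route, the highest level (D3) was thus 1.25 times the lowest (D16S-). Each Thy-1- or SSEA-1+ library lay below its partner of the same day. iPSCs held 101 FPKM and mESCs 142 FPKM. The difference between the fractions was -0.20 on day 6, -0.39 on day 9, -0.83 on day 12 and -1.97 on day 16.

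Cdkn1b and Cdkn1c are the genes of p27 and p57. Cdkn1b was at 8.62 FPKM in D0, 5.78 in D3, 11.8 in D6T-, 7.13 in D6T+, 11.6 in D9T- and 10.7 in D9T+. It was at its highest on day 12, at 28.4 FPKM in D12S+ and 20.7 in D12S-, and was at 17.0 in D16S+, 17.1 in D16S-, 11.5 in iPSCs and 16.7 in mESCs. The maximum on day 12 was thus present in both SSEA-1 fractions, and no fraction pair of Cdkn1b was 2-fold apart. Cdkn1c, an imprinted gene expressed from the maternal allele, was at 53.9 FPKM in D0, 38.7 in D3, 5.04 in D6T-, 18.2 in D6T+, 11.0 in D9T- and 13.9 in D9T+. On days 12 and 16 it was at 25.5 FPKM in D12S+, 24.7 in D12S-, 21.5 in D16S+ and 64.7 in D16S-. Its iPSC level of 72.3 FPKM was the highest of the 12 libraries, and its mESC level of 10.2 FPKM was 7.09 times lower. Within the CIP/KIP family, Cdkn1a made up 90.9% of the family total of FPKM in D0, 79.8% in D16S+ and 54.6% in iPSCs, where Cdkn1c made up 39.1%.

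Cdkn2a and Cdkn2b, neighbours on chromosome 4, differed in their course. Cdkn2a was at 289 FPKM in D0, 145 in D3, 169 in D6T-, 163 in D9T-, 163 in D12S+ and 80.2 in D16S+. In the other fractions it was at 195 FPKM in D6T+, 299 in D9T+, 245 in D12S- and 327 in D16S-. The highest level of Cdkn2a in any library was thus in D16S-, above that of the MEFs, and the lowest were in the pluripotent lines, at 43.4 FPKM in iPSCs and 34.5 in mESCs. Cdkn2b, which codes for p15, was at 106 FPKM in D0, 40.8 in D3, 15.2 in D6T-, 9.79 in D9T-, 14.8 in D12S+ and 8.44 in D16S+. It was at 60.7 FPKM in D6T+, 33.9 in D9T+, 23.5 in D12S-, 35.1 in D16S-, 7.61 in iPSCs and 4.89 in mESCs. Unlike Cdkn2a, Cdkn2b was below its D0 level in every other library, and its difference between the fractions was already -1.93 on day 6, where that of Cdkn2a was -0.21. The ratio of Cdkn2a to Cdkn2b FPKM was 2.73 in D0, 11.1 in D6T-, 3.21 in D6T+, 16.6 in D9T-, 9.51 in D16S+ and 9.33 in D16S-.

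Cdkn2c, the gene of p18, was the lowest of the 3 INK4 genes in every library. It was at 19.8 FPKM in D0, 6.46 in D3, 9.71 in D6T-, 12.2 in D6T+, 6.62 in D9T- and 11.6 in D9T+. On days 12 and 16 it was at 4.08 FPKM in D12S+, 6.35 in D12S-, 2.65 in D16S+ and 3.70 in D16S-. Both routes thus ended below D0, and no fraction pair of Cdkn2c was 2-fold apart. iPSCs held 0.921 FPKM of Cdkn2c and mESCs 3.37 FPKM.

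Trp53 was higher in the fractions where Cdkn1a, a gene that its protein induces, was lower. Trp53 was at 170 FPKM in D0, 172 in D3, 176 in D6T-, 144 in D9T-, 211 in D12S+ and 221 in D16S+. The Thy-1+ and SSEA-1- fractions held 144 FPKM in D6T+, 122 in D9T+, 120 in D12S- and 99.3 in D16S-. Each of these 4 libraries lay below its partner of the same day, and the highest levels of Trp53 were 394 FPKM in iPSCs and 262 in mESCs. Mdm2 was at 88.9 FPKM in D0 and highest in D3 at 150 FPKM, and it was at 54.7 in D6T-, 103 in D6T+, 56.5 in D9T- and 76.8 in D9T+. From day 12 it stayed between 41.2 FPKM in D12S+ and 59.4 in mESCs, with 51.6 in D12S-, 47.5 in D16S+, 50.8 in D16S- and 54.2 in iPSCs. The ratio of Trp53 to Mdm2 FPKM was 1.92 in D0, 1.15 in D3, 4.67 in D16S+, 1.95 in D16S- and 7.27 in iPSCs. The ratio of Cdkn1a to Trp53 FPKM was 3.67 in D0, 6.05 in D16S-, 0.687 in D16S+, 0.256 in iPSCs and 0.541 in mESCs, so Trp53 exceeded Cdkn1a only in these last 3 libraries. These are transcript levels and say nothing of the amount or activity of the p53 protein.

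The D cyclins showed the largest differences of the 10 genes between the day 16 fractions. Ccnd1 was at 283 FPKM in D0, 282 in D3, 191 in D6T-, 147 in D9T-, 110 in D12S+ and 35.3 in D16S+. It was at 370 FPKM in D6T+, 240 in D9T+, 237 in D12S- and 246 in D16S-, and at 56.8 in iPSCs and 35.8 in mESCs. The Thy-1- and SSEA-1+ series thus descended at each step from D3, while the other fractions ended at a level 1.15 times below D0. Ccnd2 was at 101 FPKM in D0, 156 in D3, 133 in D6T-, 145 in D9T-, 60.5 in D12S+ and 17.4 in D16S+. It was at 182 FPKM in D6T+, 153 in D9T+, 154 in D12S- and 143 in D16S-, and at 1.41 in iPSCs and 1.75 in mESCs. The Ccnd2 difference between the fractions was -0.45 (day 6), -0.08 (day 9), -1.33 (day 12) and -2.97 (day 16). That of Ccnd1 was -0.95 (day 6), -0.70 (day 9), -1.10 (day 12) and -2.77 (day 16). Both cyclins first passed the 2-fold threshold on day 12, but Ccnd1 was already close to it on day 6. The range of Ccnd2, 6.25 log2 units over the 12 libraries, was the widest of the 10 genes. The median range over all genes was 1.57 log2 units, and 34.9% of genes had a range of at least 2 log2 units.

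Ccnd3, the remaining D cyclin gene and not among the 10, was less than 2-fold from its D0 level in every library. Its level ranged from 105 FPKM in D9T- to 287 FPKM in mESCs, and it was at 194 FPKM in D0, 181 in D16S+, 140 in D16S- and 267 in iPSCs. The summed FPKM of the 3 D cyclins was 578 in D0, 234 in D16S+, 528 in D16S-, 325 in iPSCs and 325 in mESCs. The share of Ccnd3 in this sum was 33.5% in D0, 48.8% in D12S+, 77.5% in D16S+, 26.4% in D16S-, 82.1% in iPSCs and 88.4% in mESCs. The D cyclin transcripts of the pluripotent lines and of D16S+ were thus mostly Ccnd3, and those of D16S- mostly Ccnd1 (46.5%) and Ccnd2 (27.0%).

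**Figure D2:**
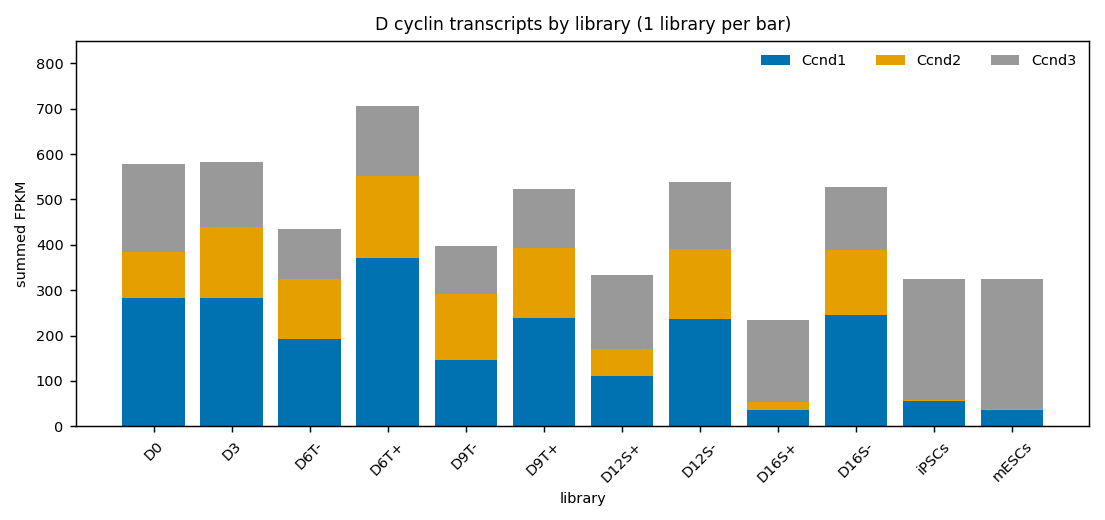
Stacked bars of the FPKM of Ccnd1, Ccnd2 and Ccnd3 in each library (linear axis from 0, 1 library per bar). Ccnd3 makes up 77.5% of the bar in D16S+, 82.1% in iPSCs and 88.4% in mESCs, against 26.4% in D16S-.

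The first comparison asked what differed after 3 days of infection. By the labels, D0 cells had been grown in serum medium and D3 cells in FF medium, so infection and medium cannot be told apart. Against D0, D3 held less Cdkn2b (difference -1.35) and Cdkn2c (-1.48), and none of the 10 genes was at least 2-fold higher. Over all genes, 8.67% were at least 2-fold lower and 5.76% at least 2-fold higher. Cdkn2a, at -0.99, missed the threshold narrowly, and Mdm2 (0.75), Ccnd2 (0.62) and Cdkn1a (0.26) lay above 0, while Trp53 (0.02) and Ccnd1 (-0.01) were level. When all libraries were brought to an equal FPKM total, which moved the median of all genes from -0.02 to 0.12, Mdm2 reached 1.02. The calls over all genes went from 816 higher and 1229 lower to 1152 higher and 888 lower under that scaling.

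On days 6 and 9 the question was how the Thy-1- cells differed from the Thy-1+ cells. On day 6, Cdkn1c (-1.67) and Cdkn2b (-1.93) were at least 2-fold lower in D6T-, where 9.47% of all genes were lower, and no member was higher, where 2.93% of all genes were. Ccnd1 (-0.95) and Mdm2 (-0.90) lay closest to the threshold among the others, and Cdkn1b (0.65) was the furthest above 0. On day 9, Cdkn2b alone was at least 2-fold lower in D9T- (-1.70), against 6.45% of all genes, and no member was higher, against 1.81%. Cdkn2a (-0.87), Cdkn2c (-0.72) and Ccnd1 (-0.70) came next.

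From day 12 the sort was on SSEA-1, and on day 12 itself Ccnd1 and Ccnd2 were the only ones of the 10 genes at least 2-fold apart. Ccnd3, not among the 10, was at 162 FPKM in D12S+ and 147 in D12S-. On day 12, Ccnd1 (-1.10) and Ccnd2 (-1.33) were at least 2-fold lower in D12S+, against 3.03% of all genes, and Ccnd2 stood at percentile 0.628 of the differences of all genes. No member was at least 2-fold higher, against 4.79% of all genes, the nearest being Trp53 at 0.81. Cdkn2b, apart on days 6 and 9, differed by -0.63. The sorting marker changed between days 9 and 12, so the day and the marker cannot be told apart here.

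On day 16 most of the 10 genes were apart. Lower in D16S+ were Ccnd2 (-2.97), Ccnd1 (-2.77), Cdkn2a (-2.02), Cdkn1a (-1.97), Cdkn2b (-1.94) and Cdkn1c (-1.55), that is 6 of the 10 genes, against 15.2% of all genes. Trp53 (1.15) was the 1 gene at least 2-fold higher, against 11.8% of all genes. Cdkn2c (-0.37), Mdm2 (-0.10) and Cdkn1b (-0.01) were less than 2-fold apart. The median of the 10 differences was -1.74 and that of all genes -0.02. Klf4 was at 127 FPKM in D16S+ against 691 in D16S-, Myc at 92.6 and 599 FPKM, the sum of fibroblast markers at 32.9 and 419 FPKM, that of keratinocyte markers at 37.9 and 85.3 FPKM, and that of leukocyte markers (3 of 5 at 1 FPKM or more in either library) at 70.3 and 144.7 FPKM, and their part in these differences was not tested.

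**Figure D3:**
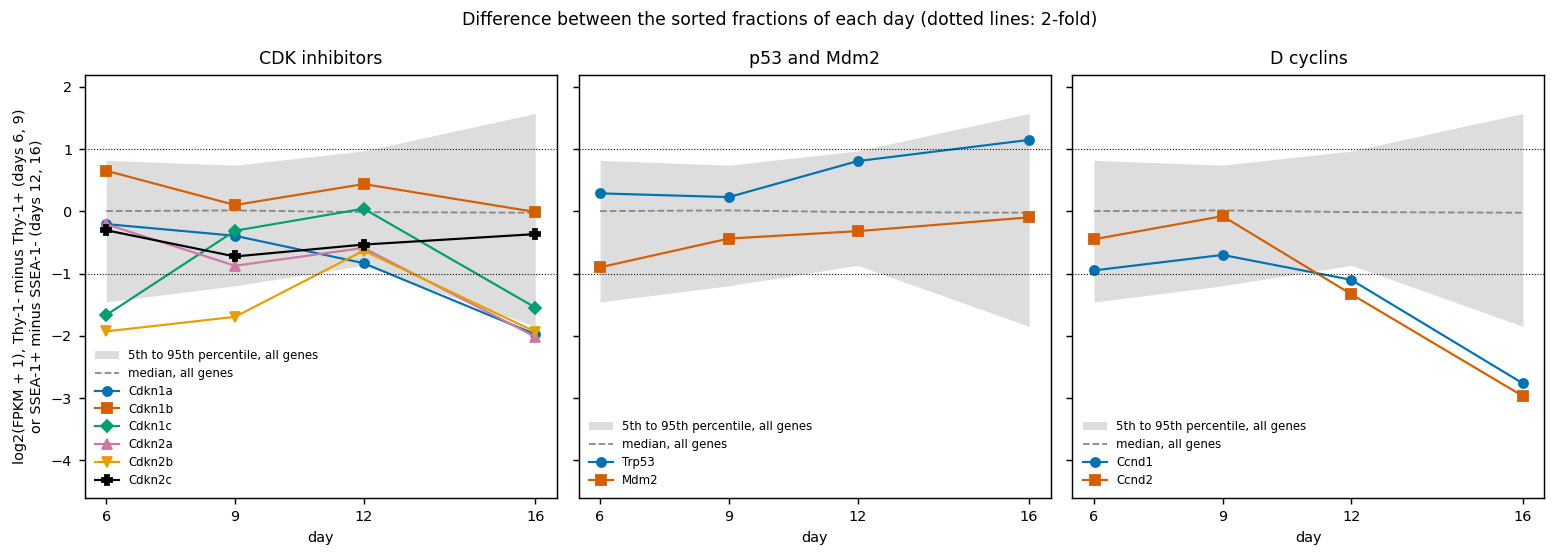
Difference in log2(FPKM + 1) between the sorted fractions on days 6, 9, 12 and 16 for each gene (1 library per fraction), with the 5th to 95th percentile of all 14178 genes in grey and 2-fold as dotted lines. Cdkn2b is lowest on days 6 and 9, Ccnd1 and Ccnd2 on days 12 and 16, and Trp53 lies above 0 on all 4 days.

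The end points were compared last. By the labels, D0 cells had been grown in serum medium and iPSCs in FF medium. Cell state and medium therefore cannot be told apart wherever iPSCs are set against D0. Against D0, iPSCs held less Ccnd2 (-5.41), Cdkn2b (-3.63), Cdkn2c (-3.44), Cdkn2a (-2.71), Cdkn1a (-2.62) and Ccnd1 (-2.30), again 6 of the 10 genes, against 21.6% of all genes. Trp53 (1.21) was at least 2-fold higher, against 18.7% of all genes, and Cdkn1b (0.38), Cdkn1c (0.42) and Mdm2 (-0.70) were less than 2-fold apart. The median of the 10 differences was -2.46 and that of all genes 0.03, which an equal FPKM total moved to 0.18. In untransformed FPKM, Ccnd2 was 72.1 times lower in iPSCs than in D0, Cdkn2c 21.5 times and Cdkn2b 13.9 times. The iPSC levels of Ccnd2 (1.41 FPKM, interval 0 to 4.00) and Cdkn2c (0.921 FPKM, interval 0 to 2.94) were low, so their ratios are uncertain. Between iPSCs and mESCs, Cdkn1c was higher in iPSCs (2.71, percentile 99.5 of all genes) and Cdkn2c lower (-1.19), against 6.79% of all genes higher and 7.41% lower. The other 8 genes lay between -0.50 (Cdkn1b) and 0.65 (Ccnd1).

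Other genes of the same pathways were described from lists chosen by name, with earlier results of these data known. Among 18 genes of the D cyclin, CDK and Rb pathway, D16S+ held at least 2-fold more of 5 and less of none, against 11.8% and 15.2% of all genes. These were Skp2 (1.63), whose product targets p27 for degradation, E2f5 (1.53), the Rb relative Rbl1 (1.23), the phosphatase gene Cdc25a (1.07) and the cyclin gene Ccne1 (1.03). Against D0, iPSCs held at least 2-fold more of 5 of the 18 (Ccne1, Cdc25a, Skp2, Cdk2 and Cdk6) and less of 2, Cdkn2d (-1.08) and Rbl2 (-1.27), against 18.7% and 21.6% of all genes. Ccne1 was at 121 FPKM in iPSCs against 44.7 in D0 and Cdc25a at 39.9 against 15.7 FPKM. In D3, Rb1 (5.17 against 1.07 FPKM in D0) and Cdk6 (13.9 against 4.48 FPKM) were the 2 of the 18 genes at least 2-fold higher, against 5.76% of all genes, and none was lower. Of 17 proliferation genes, 16 were at least 2-fold higher in D16S+ than in D16S-, against 11.8% of all genes, with a median of 2.01, the mitotic cyclin Ccnb1 at 71.5 against 7.50 FPKM being the furthest apart. All 17 were above 0 in each of the 4 fraction comparisons, and 2 were at least 2-fold higher on day 6, 3 on day 9 and 10 on day 12, against 2.93%, 1.81% and 4.79% of all genes. D16S+ thus held less Ccnd1 and Ccnd2 transcript, less transcript of 4 CDK inhibitor genes and more of the replication and mitosis transcripts than D16S-.

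Of 11 regulators of p53, 10 passed the filter on low values. On day 16, 5 of these were at least 2-fold higher in D16S+ and 1 lower, against 11.8% and 15.2% of all genes, with a median of 1.18. Higher were the checkpoint kinase genes Chek2 (18.3 against 3.79 FPKM) and Chek1 (4.29 against 0.494 FPKM), the deubiquitinase gene Usp7 (48.2 against 13.0 FPKM), the p53 relative Trp73 (3.44 against 0.577 FPKM) and the Mdm2 relative Mdm4 (24.4 against 8.62 FPKM), and the kinase gene Hipk2 was lower (4.07 against 9.29 FPKM). Mdm4, unlike Mdm2, was thus apart on day 16, and it was also at least 2-fold higher in D9T- (16.5 FPKM) than in D9T+ (7.32 FPKM). In iPSCs, 5 regulators were at least 2-fold higher than in D0, namely Mdm4, Chek1, Chek2, Usp7 and Trp73, and none was lower, against 18.7% and 21.6% of all genes.

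The p53 targets other than Cdkn1a and Mdm2 were a list of 23 genes, which all passed the filter. On day 16, 15 of them lay above 0 and 8 below, their median difference was 0.09, and Trp53inp1 (19.9 against 7.44 FPKM) was the 1 gene at least 2-fold higher in D16S+, against 11.8% of all genes. Perp (-1.33), Btg2 (-1.25), Fas (-1.16), Plk2 (-1.12) and Phlda3 (-1.06) were lower, that is 5 of the 23 against 15.2% of all genes. Against D0, D3 held at least 2-fold more of 5 targets and less of none, against 5.76% and 8.67% of all genes, with 18 above 0, 5 below and a median of 0.31. Perp, a component of desmosomes that p53 induces, was at 126 FPKM in D3 against 2.28 in D0, and the apoptosis gene Bbc3 (Puma) at 33.7 against 16.0 FPKM. The others were Plk2 (1.17), Trp53inp1 (1.36) and the death receptor gene Fas (1.09). In iPSCs, Perp (3.48), Sesn1 (1.85), the repair gene Ddb2 (1.56) and Trp53inp1 (1.23) were at least 2-fold higher than in D0, and Ccng1 (-1.46) and Phlda3 (-1.27) lower. These are 4 and 2 of the 23 against 18.7% and 21.6% of all genes, and the list had 9 genes above 0, 14 below and a median of -0.26.

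Regulators of the Cdkn2a locus were a list of 15 genes, most of which code for Polycomb proteins, which keep the locus silent in growing cells. On day 16, Cbx7 (77.9 against 14.1 FPKM), Ezh2 (21.9 against 5.06 FPKM), Suz12 (12.0 against 3.57 FPKM) and Pcgf2 (36.2 against 17.3 FPKM) were at least 2-fold higher in D16S+, that is 4 of the 15 against 11.8% of all genes. Another 4 were lower, against 15.2% of all genes, among them the Polycomb genes Cbx8 (2.17 against 6.89 FPKM) and Ring1 (8.75 against 19.6 FPKM) and Ets1, which codes for an activator of the p16Ink4a start (1.62 against 8.69 FPKM). Cbx7 was already apart on day 12, at 56.6 FPKM in D12S+ and 10.6 FPKM in D12S-, when Cbx8 was lower at 3.81 against 8.99 FPKM. The D0 level of Cbx7 was 1.67 FPKM against 95.1 FPKM in iPSCs. Ets1 was lower in D6T- (3.67 FPKM) than in D6T+ (12.5 FPKM) and in D9T- (3.86 FPKM) than in D9T+ (12.9 FPKM), days on which Cdkn2a was less than 2-fold apart and Cdkn2b more. In iPSCs, 6 of the 15 genes were at least 2-fold higher than in D0 and 3 lower, against 18.7% and 21.6% of all genes.

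Of 10 genes associated with senescence, 8 passed the filter. The nuclear lamina gene Lmnb1, which is lost in senescent cells, was at least 2-fold higher in D16S+ (115 against 26.4 FPKM), and 5 of the 8 were lower, against 11.8% and 15.2% of all genes, among them Ccl2 (18.6 against 299.7 FPKM), Cxcl1 (1.55 against 30.3 FPKM), Il6 (0.42 against 5.96 FPKM) and Igfbp7 (4.11 against 23.3 FPKM). On day 6, Cdkn1a (-0.20) and Cdkn2a (-0.21) were less than 2-fold apart, whereas Cdkn2b (-1.93) and Cdkn1c (-1.67) were lower in D6T-. Of the 8 senescence genes, 6 were then at least 2-fold lower in D6T- and 1 higher, against 9.47% and 2.93% of all genes. The median of the 8 was -2.75. Ccl2, for example, was at 112 FPKM in D6T- against 704 in D6T+. Most of them are also expressed by fibroblasts in general, and the sum of 8 fibroblast markers was 401 FPKM in D6T- against 2676 in D6T+, whose part in this was not tested. In iPSCs, 5 of the 8 genes were at least 2-fold lower than in D0, against 21.6% of all genes, Ccl2 at 4.13 against 882 FPKM, and Lmnb1 was higher at 174 against 31.9 FPKM.

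Of 9 genes listed for the imprinted domain around Cdkn1c, 7 passed the filter, and on day 16 Phlda2 was at least 2-fold higher in D16S+ (30.3 against 7.98 FPKM) whereas Cd81 (303 against 827 FPKM) and Osbpl5 (3.61 against 18.9 FPKM) were lower, against 11.8% and 15.2% of all genes. Phlda2, also expressed from the maternal allele, had 1.03 FPKM in D0 against 43.2 in iPSCs and 58.4 in mESCs. In the comparison that set Cdkn1c 7.09 times higher in iPSCs than in mESCs, Osbpl5 (5.33 against 2.07 FPKM) was the 1 listed gene at least 2-fold apart, against 6.79% of all genes higher in iPSCs.

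**Figure D4:**
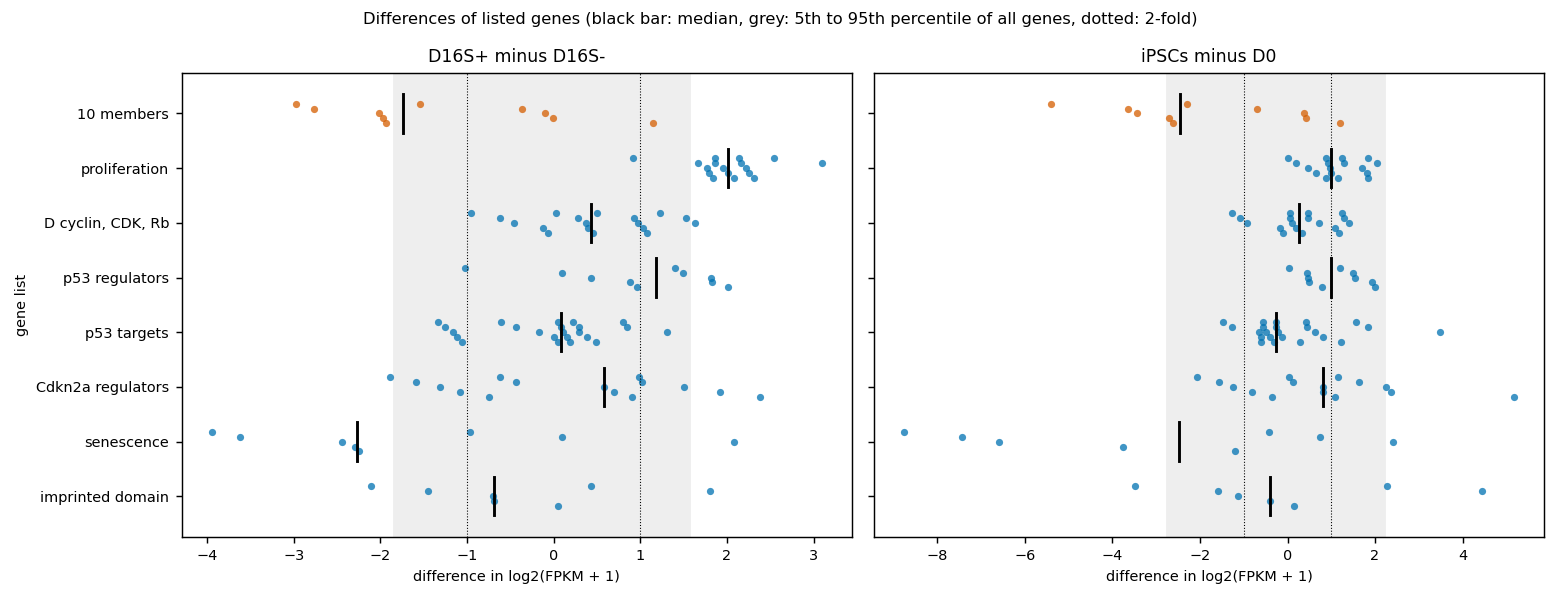
Differences in log2(FPKM + 1) of the 10 genes (orange) and of the listed genes that passed the filter (blue), 1 point per gene, with the median of each list as a black bar and the 5th to 95th percentile of all 14178 genes in grey. Left is D16S+ minus D16S-, where the median is -1.74 for the 10 genes and 2.01 for the proliferation genes, and right is iPSCs minus D0.

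The course of each gene that spanned at least 2 log2 units was set beside those of all other genes, as the root mean square difference of the centred log2(FPKM + 1) values over the 12 libraries. The genes most like Cdkn1a were Syne1 (0.12), Ptrf (0.18) and Vopp1 (0.18), and those most like Cdkn1b were Mapk1ip1 (0.19), Khnyn (0.21) and Tnfaip8l1 (0.22). Those nearest to Cdkn1c were Dysf (0.34), Trpv2 (0.48) and Shroom1 (0.49). Pitpnm1 (0.23), Hivep2 (0.24) and Serpine2 (0.25) were nearest to Cdkn2a, and Qsox1 (0.21), Runx2 (0.23) and Chrna1 (0.24) were nearest to Cdkn2b. Nearest to Cdkn2c were Nxn (0.31), Bahcc1 (0.31) and Ebf3 (0.31). For the D cyclins, Bag2 (0.28), Ptprm (0.29) and 9530068E07Rik (0.29) were nearest to Ccnd1, and Cd44 (0.38), Lama4 (0.42) and Cd34 (0.51) to Ccnd2. Trp53 and Mdm2 spanned 1.98 and 1.84 log2 units and were left out.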

How the data were processed

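Polyadenylated RNA of 12 libraries was prepared with a TruSeq kit, named as stranded in the labels. The authors mapped reads to mm9 with STAR, removed reads with more than 2 mismatches or more than 1 locus, and estimated FPKM and its interval per gene with cuffdiff; versions and annotation are not given in the sources used here. The deposited values are these FPKM. Absolute depth is unknown, and relative depth was read from the steps of genes under 0.5 FPKM. Log2 with a pseudocount of 1, a minimum of 1 FPKM in at least 1 library and a 2-fold threshold were used (pandas 2.3.3, numpy 2.4.6), after the functions were tested on simulated data. The retroviral and endogenous OSKM transcripts share 1 value. Positions are from GENCODE M1. The genes, lists and settings were chosen with earlier results of these data known. Beyond the 10 genes, list genes at least 2-fold apart in a comparison and the 3 genes most like each gene were named, and Ccnd3 and cell markers were added. Some listed genes are not reported here by name and count in the totals of their lists. Alternatives were a pseudocount of 0.1, other scalings, no filter, a 4-fold threshold and intervals apart.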

Additional observations from a re-analysis of the deposited data

How the results depend on the processing

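Among the 10 genes, no difference of at least 2-fold changed sign under any alternative. With all libraries scaled to the same total FPKM, the number at least 2-fold higher in D3 than in D0 went from 0 to 1 (Mdm2), and the other 13 counts stayed within 1.5 times. With a 4-fold threshold, the number higher went from 1 to 0 for D16S+ against D16S- and for iPSCs against D0. The number lower then went from 6 to 3 for D16S+ against D16S- and to 0 for D3 against D0, D6T- against D6T+, D9T- against D9T+, D12S+ against D12S- and iPSCs against mESCs, while it stayed at 6 for iPSCs against D0. Requiring the intervals of cuffdiff to be apart left 0 genes in every comparison, since those intervals are wide. A pseudocount of 0.1 and scaling by the median of ratios kept all 14 counts within 1.5 times. The factors of that scaling lay between 1.000 (D16S+) and 1.015 (D9T-), so it left the values almost unchanged. Dropping the filter on low values could not change these counts, since all 10 genes had passed it. The pseudocount of 0.1 moved Ccnd2 in iPSCs against D0 to -6.07, Cdkn2c in that comparison to -4.28 and Cdkn2c in iPSCs against mESCs to -1.76. The signs of Cdkn1b and Mdm2 on day 16, of Ccnd1 in D3 against D0 and of Ccnd2 on day 9 differed between settings, all being under 2-fold. No paired analysis was possible because each condition had 1 library and the titles carry no replicate numbers, and leaving out a replicate was not possible for the same reason.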
